A study of Mus musculus with 30 samples.

Results

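The genes of the proteasome were described in mouse embryonic fibroblasts (MEFs) under 3 kinds of stress, over 15 groups of 2 arrays each. Members were the genes whose array symbol begins with Psm, a letter from a to g and a number, except the immunoproteasome genes Psmb8, Psmb9 and Psmb10. This name rule took in 40 of the 21689 named genes on the array. They were 8 alpha ring subunits (Psma1 to Psma8), 7 beta ring subunits (Psmb1 to Psmb7), 6 ATPases (Psmc1 to Psmc6), 10 other subunits of the regulatory particle, 3 assembly factors (Psmd5, Psmd9 and Psmd10), 5 activators or inhibitors (Psme1, Psme2b, Psme3, Psme4 and Psmf1) and Psmc3ip. The last is a meiotic recombination protein that is no proteasome subunit and that the letters of the rule brought in.

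The cells were exponentially growing, immortalised wild type and p38α-/- MEFs, each genotype being 1 line as far as the labels say. p38α, encoded by Mapk14, is a stress-activated protein kinase. Wild type MEFs received anisomycin, an inhibitor of protein synthesis, at 25 ng/ml for 45 min, the cytokine TNFα at 100 ng/ml for 45 min, or 100 mM NaCl, an osmotic stress, for 45 min, 2 h or 8 h. Each of these 5 treatments was also given with SB203580, an inhibitor of p38α and p38β, and SB203580 was given alone. Of the p38α-/- MEFs there were untreated cells and cells given the same doses of anisomycin, TNFα and, for 2 h, NaCl. The sample titles give SB203580 as 10 mM for 2 h. The treatment protocol and the study's methods both give 10 µM for 30 min ahead of the stress, so the titles differ from these sources. On all 30 arrays the sample was labelled with Cy5 and 1 common pool, made from 2 untreated wild type cultures, with Cy3. No dye swap was made. All values below are log2 ratios of sample over pool, in which 0 is the level of the pool, or differences between such ratios. The study's methods describe the replicates as independent experiments, and the p-values measure the spread between these samples of 1 line per genotype. In RNA from whole cultures, fewer cells of a type and less RNA per cell cannot be told apart.

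The proteasome degrades proteins that carry ubiquitin chains. Its core particle is a barrel in which outer rings of alpha subunits gate the entrance and inner rings of beta subunits carry the cutting sites, among them Psmb5, with chymotrypsin-like activity, and Psmb6, with caspase-like activity. The regulatory particle caps the barrel: ubiquitin receptors such as Psmd4 hold the substrate, the deubiquitinase Psmd14 removes the ubiquitin, and a ring of the ATPases Psmc1 to Psmc6 unfolds the protein and threads it into the core. Chaperones such as Psmd5 help to assemble the ATPase ring and are not part of the finished particle. The transcription factors Nfe2l1 and Nfe2l2 raise the transcription of many subunit genes through antioxidant response elements in their promoters.

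Promoter sequence is shown for 3 members, as it bears the core of that element. These members are named in the osmotic stress results or carry a cutting site. The letters TGACNNNGC were searched on either strand from 250 bases before to 50 bases after each gene's start in RefSeq (GRCm38.p6). They were found in 12.4% of the 32851 promoter windows in the table and in 6 of the 32 members that have a window (18.8%), namely Psmb5, Psmb6, Psmc6, Psmd9, Psmd12 and Psme4. A match of these letters is a description, not a known binding site. Psmb1, Psmb2, Psmb7, Psma8, Psmc3, Psmd3 and Psmd7 were not in the table, and Psme2b was left out. In the stretches printed, 5′ to 3′ on the gene's strand, capitals mark the match.
Psmb6: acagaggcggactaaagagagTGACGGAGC
Psmc6: gccagccagtaGCTAAGTCAggcattgctc
Psmb5: acgtgaagttgTGACGTCGCggcgttgcca
The Psmb6 stretch lies at chr11:70525327-70525356 on the plus strand, and its match ends at the last base before the start site. The Psmc6 stretch lies at chr14:45329586-45329615 on the plus strand, with the match on the opposite strand and 218 bases before the start. The Psmb5 stretch lies at chr14:54618024-54618053 on the minus strand, 38 bases before the start.

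All 40 members were well above background in both channels in at least 1 spot on all 30 arrays, and none was saturated. Of their spots, 31.7% were marked as outliers by the scanner software and left out, a larger share than on the median array, where 16.0% of all spots were marked (6.78% to 44.8% over the arrays). A value on all 30 arrays was kept by 7 of the genes, the median gene kept 23.5 and Psma7, the lowest, kept 7. A comparison tested only genes with a value on every array compared, so the number of members tested is given each time. As a check of the labels, Mapk14 lay between 0.03 and 1.31 in the wild type arrays and between -2.24 and -0.94 in the p38α-/- arrays, with no overlap (outlier spots kept). All 13 fibroblast markers on the array were well above background on every array in at least 1 spot. So were 7 of 7 leukocyte, 4 of 6 endothelial and 2 of 2 epithelial markers. Their signals differed. The median Cy5 signal was 12914 over the fibroblast markers and 705 over the leukocyte markers (39 to 3325). It was 913 over the endothelial and 1767 over the epithelial markers. The arrays of wild type replicate 1 were all scanned on 1 day and those of replicate 2 on another, together with replicate 1 of the p38α-/- groups. Replicates shifted as a whole in several groups: with SB203580 alone the members' median was 0.20 on replicate 1 and -0.17 on replicate 2, and 37 of 40 members were higher on replicate 1. With NaCl for 8 h the medians were -0.37 and -0.15, with 3 of 40 higher on replicate 1.

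Several members lay to the same side of the pool on all 30 arrays, whatever the treatment, though the distance varied between arrays. With outlier spots kept, Psmd13, a subunit of the lid of the regulatory particle, averaged -1.38 over the 30 arrays and ranged from -2.04 to -0.19. Psmc3, an ATPase, averaged -0.65 (-1.09 to -0.33), and Psmb6 averaged -0.64 (-1.12 to -0.32). The testis-specific alpha subunit Psma8 averaged -0.51 (-1.13 to -0.04) at a low signal. Psmd3, Psmd4 and the nuclear activator Psme4 were also below the pool on all 30 arrays, by averages of -0.38, -0.30 and -0.23. Psmb4, a beta subunit, was the one member above the pool on all 30 arrays, at an average of 0.44 (0.01 to 1.17). A difference in RNA that all samples share against the pool and a difference between the dyes cannot be told apart, since every array has the pool in Cy3.

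**Figure D1:**
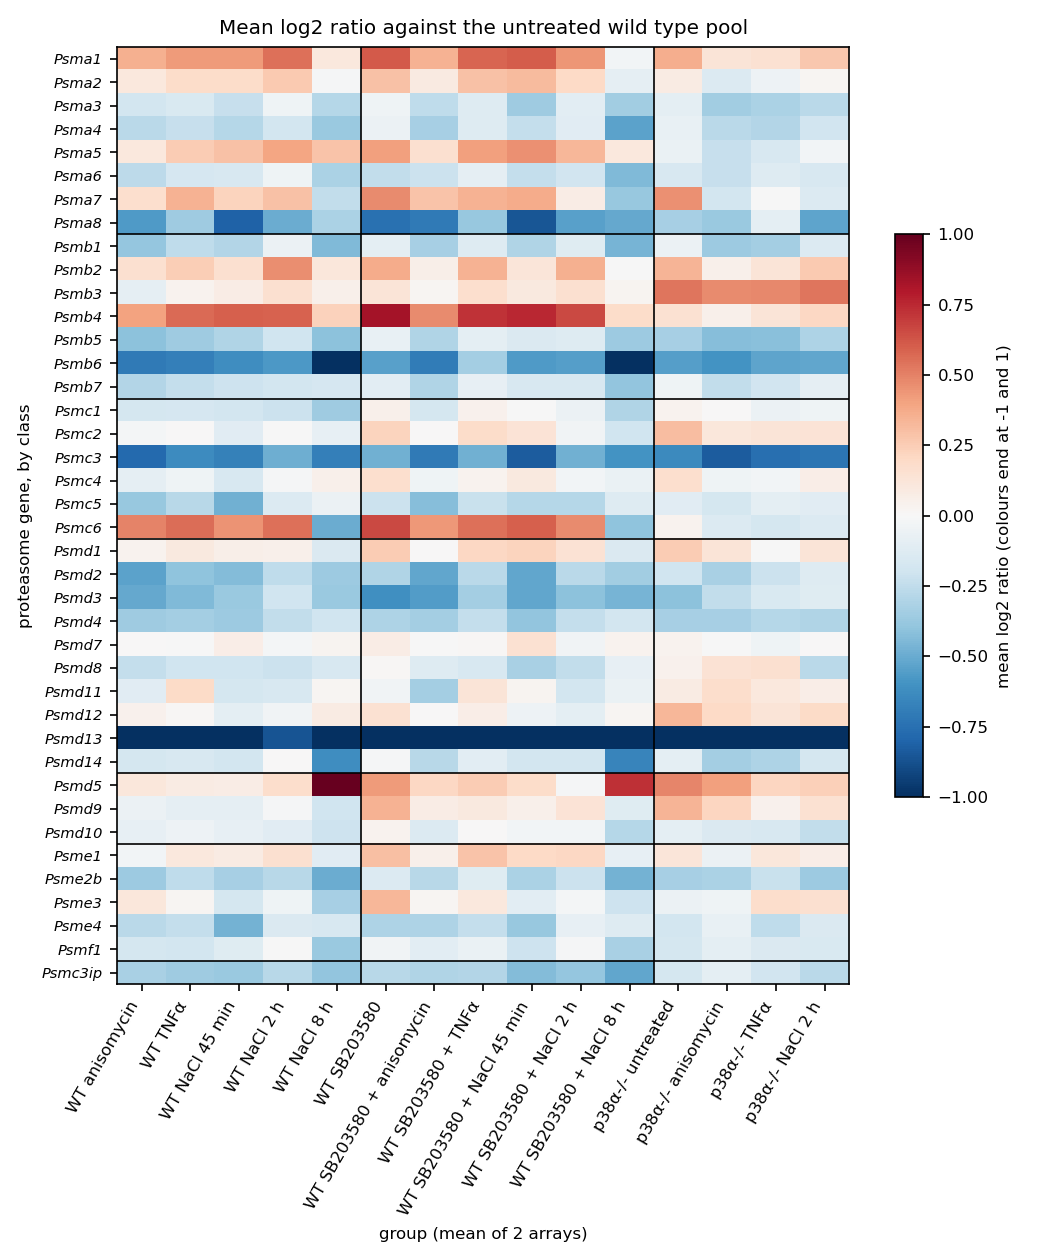
Mean log2 ratio of sample over pool for the 40 members (rows, grouped by role) in the 15 groups (columns, 2 arrays each, outlier spots kept), with the colour scale ending at -1 and 1. Psmd13 is low in all columns, and the 2 columns with NaCl for 8 h are the ones in which Psmc6 is below 0 in wild type MEFs and Psmd5 is highest.

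Each group was first set against the pool of untreated wild type MEFs. Such a value takes in any difference between the dyes, so it is not the distance from untreated MEFs alone. These comparisons share the pool, which has no spread of its own, so they are given side by side and not compared with each other. With the stresses of 45 min few members could be tested, 18 with anisomycin, 18 with TNFα and 10 with NaCl. Anisomycin called 0 of 18 tested members higher and 3 lower, against 12% of all genes tested called in either direction. The 3 were Psma8 at -0.57 (arrays -0.89 and -0.25), Psme2b at -0.35 (-0.38 and -0.32) and Psmf1, an inhibitor of the proteasome, at -0.30 (-0.26 and -0.35). With TNFα 3 of 18 were called (11% of all genes): Psmb4 at 0.56 (0.75 and 0.38), Psmc6 at 0.56 (0.66 and 0.46) and Psmd13 at -1.10 (-0.99 and -1.21). With NaCl for 45 min 4 of 10 were called (9.88% of all genes): Psma8 at -0.81 (-1.01 and -0.60), Psmb4 at 0.59 (0.57 and 0.62), Psmc6 at 0.51 (0.45 and 0.58) and Psme4 at -0.42 (-0.39 and -0.46). Psmc6 is read by 2 probes whose values part most at 8 h of NaCl, as described below for each probe. With NaCl for 2 h 4 of 31 were called (9.92%): Psmd13 at -0.86, from arrays of -1.54 and -0.19, Psmb4 at 0.59 (0.76 and 0.43), Psmb6 at -0.57 (-0.58 and -0.57) and Psmc6 at 0.55 (0.70 and 0.40). Of these genes Psma8, Psmb4, Psmb6, Psmd13 and Psme4 are among those that lay to the same side of the pool on all 30 arrays. Without replicate 1 of the group 0 members were called in each of these 4 comparisons, and without replicate 2 3 were called with anisomycin, 2 with TNFα, 2 with NaCl for 45 min and 3 for 2 h.

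After 8 h of NaCl members of most roles lay below the pool. Of 28 tested, 11 were called lower and 1 higher, against 11.2% of all genes called lower and 11% called higher, and the members' median was -0.22 where that of all genes was 0.00. By role, those called lower were 2 of 6 alpha subunits (Psma4 at -0.37 and Psma6 at -0.32), 3 of 6 beta subunits (Psmb6 at -1.11, Psmb1 at -0.44 and Psmb5 at -0.41), 2 of 4 ATPases (Psmc6 at -0.50 and Psmc1 at -0.36), 2 of 7 other regulatory subunits (Psmd13 at -1.39 and Psmd14 at -0.67) and both activator or inhibitor genes tested (Psme2b at -0.53 and Psmf1 at -0.37). The arrays gave -1.39 and -1.38 for Psmd13 and -0.82 and -0.52 for Psmd14. Most of these genes also lay below the pool under other treatments (outlier spots kept). Psmd13, with an average of -1.38, and Psmb6 did so on all 30 arrays, and Psmb5 and Psme2b on 29. Psma4, Psma6, Psmb1 and Psmf1 did so on 28, Psmd14 on 26, Psmc1 on 23 and Psmc6 on 10. The distance from the pool at 8 h is therefore not all a change at 8 h. On the brighter of its probes Psmc6 lay at 0.18 (adjusted p = 0.514), so its direction here turns with the probe. Psmd5, the assembly chaperone, was the one called higher, at 0.99 (adjusted p = 0.00067 by limma). With outlier spots kept all 40 members could be tested. Of these 16 were called lower (15.6% of all genes) and 1 was called higher (2265 of 21689 genes). Below 0 lay 30 of 40, with a members' median of -0.21 where that of all genes was -0.03. In the same setting 28 of 40 lay below 0 with anisomycin, with NaCl for 45 min and with NaCl for 2 h. The members' medians there were -0.18, -0.17 and -0.05, where those of all genes were -0.07, -0.06 and -0.03. The count below 0 is thus not particular to 8 h. The count rests on both arrays: without replicate 1 of NaCl 8 h 4 members were called (median -0.17), without replicate 2 6 (median -0.36), and with another background correction (normexp) 6.

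The groups with SB203580 and the p38α-/- groups were set against the pool in the same way. For SB203580 alone 5 of 16 were called, 4 of them higher, against 26.6% of all genes. Psmb4 was at 0.84 (1.17 and 0.51), Psma8 at -0.75 (-0.97 and -0.53), Psmc6 at 0.66 (1.01 and 0.31) and the alpha subunit Psma1 at 0.61 (0.94 and 0.29). These arrays differ from each other as a whole, and 0 members were called without replicate 1 and 10 without replicate 2. With SB203580 and anisomycin 5 of 19 were called (11.7% of all genes), led by Psmd13 at -1.53 (-1.49 and -1.57) and Psma8 at -0.71 (-0.72 and -0.69). With SB203580 and TNFα 4 of 21 were called, all higher (9.52%), led by Psmb4 at 0.72 (0.80 and 0.64). With SB203580 and NaCl for 45 min 5 of 14 were called (16.8%), led by Psma8 at -0.86 (-1.13 and -0.59), and for 2 h 5 of 28 (17.1%), led by Psmd13 at -1.17 (-1.09 and -1.25). These 4 counts rest on both arrays of the group. Without replicate 1 they were 2, 0, 2 and 2, and without replicate 2 they were 1, 0, 2 and 1 (anisomycin, TNFα, NaCl 45 min and NaCl 2 h). With SB203580 and NaCl for 8 h 10 of 25 were called lower and Psmd5 higher, at 0.73, against 10.7% and 10.5% of all genes, with a members' median of -0.27. The largest were Psmd13 at -1.34 (-1.56 and -1.11) and Psmb6 at -1.03 (-1.10 and -0.95). Both, like Psma8 and Psmb4 above, are among the genes that lay to the same side of the pool on all 30 arrays. Without replicate 1 of that group 3 members were called and without replicate 2 6. In p38α-/- MEFs untreated cells had 2 of 23 members called (15% of all genes), the beta subunit Psmb3 at 0.53 (0.62 and 0.44) and Psmb6 at -0.55 (-0.58 and -0.53). With anisomycin 4 of 24 were called (12.4%), with TNFα 3 of 30 (7.61%) and with NaCl for 2 h 5 of 33 (18%), and Psmb3 was higher in each, at 0.47, 0.48 and 0.53. Without replicate 1 the calls in untreated, anisomycin, TNFα and NaCl p38α-/- MEFs were 0, 2, 0 and 3, and without replicate 2 they were 3, 1, 2 and 2.

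Differences between groups leave the pool out. They were taken first over the time course of NaCl in wild type MEFs. Between 45 min and 2 h limma called 0 of 9 members (0 at an unadjusted p under 0.05), against 0.054% of all genes. From 2 h to 8 h 2 of 25 fell and 1 rose, against 4.47% and 3.34% of all genes, and the members' median was -0.21 where that of all genes was -0.01. Psmc6 fell by 1.05 (SE 0.23, adjusted p = 0.00698 by limma), Psmb6 fell by 0.54 (SE 0.12, adjusted p = 0.0174) and Psmd5 rose by 0.82 (SE 0.22, adjusted p = 0.0427). Leaving out any 1 of the 4 arrays left 1 call. The members' median was -0.06 without replicate 1 and -0.25 without replicate 2 of the 2 h group, and -0.13 and -0.30 without those of the 8 h group. Against 45 min, Psmc6 alone of 9 was called, at -1.01 (adjusted p = 0.00892 by limma, where 7.53% of all genes were called). The count was 0 without replicate 2 of NaCl 45 min or replicate 1 of NaCl 8 h, and 2 without replicate 1 of NaCl 45 min.

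The same time step was measured again in the arm with SB203580, and the mean of both arms, 8 arrays in all, was examined after the values had been seen. In it 5 of 21 members fell and 1 rose from 2 h to 8 h, against 9.48% and 7.02% of all genes tested, with a members' median of -0.22 and -0.01 for all genes. Those that fell were the ATPase Psmc6, the beta subunits Psmb6 and Psmb4, the inhibitor Psmf1 and Psme2b, a copy of an activator subunit gene that the array may not tell apart from its near-identical parent. Psmd5 rose. On the brightest probe of each gene 3 members were called in place of 6. Leaving out 1 array gave 4 to 8 calls, and the calls of Psmb4 and Psme2b are the ones least held: Psmb4 was lost without any 1 of 7 of the arrays (adjusted p up to 0.150), and Psme2b without any 1 of 6 (up to 0.118) and with outlier spots kept.

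Psmc6 was 0.70 and 0.40 on the 2 arrays at 2 h and -0.62 and -0.37 at 8 h, and with SB203580 it was 0.44 and 0.50 at 2 h and -0.42 and -0.38 at 8 h. The times do not overlap, and every other wild type array lay between 0.31 and 1.01, so the 4 arrays at 8 h are the only wild type arrays below the pool in the mean of the 2 probes. The brighter probe was above the pool on 3 of these 4 arrays. The mean difference was -0.96 (SE 0.16, 95% interval -1.29 to -0.63, adjusted p = 0.000316 by limma), or 1.95-fold lower, and on the brighter probe alone it was -0.23 (adjusted p = 0.469). Psmb6, which was below the pool throughout, went from -0.58 and -0.57 at 2 h to -1.12 and -1.11 at 8 h, and with SB203580 from -0.59 and -0.51 to -1.10 and -0.95. The 4 later arrays again lay below all other wild type arrays, which ran from -0.77 to -0.32. The difference was -0.51 (SE 0.08, 95% interval -0.69 to -0.33, adjusted p = 0.00139 by limma).

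Psmb4 was 0.76 and 0.43 at 2 h and 0.19 and 0.27 at 8 h, and with SB203580 0.58 and 0.73, then 0.17 and 0.20. It was lower on all 4 later arrays than on the earlier ones but stayed above the pool, and the difference was -0.42 (SE 0.13, adjusted p = 0.0334 by limma). Psmf1 was 0.06 and 0.01 at 2 h and -0.42 and -0.32 at 8 h, and with SB203580 0.15 and -0.01, then -0.40 and -0.26. Averaged over its probes, which differ as described below, its groups did not overlap. It differed by -0.40 (SE 0.09, adjusted p = 0.00627 by limma). Psme2b moved least, from -0.23, -0.28, -0.19 and -0.25 on the 2 h arrays to -0.44, -0.61, -0.41 and -0.53 on the 8 h arrays, a difference of -0.26 (SE 0.08, adjusted p = 0.0306 by limma).

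Psmd5 went the opposite way. It was 0.20 and 0.15 at 2 h and 0.68 and 1.30 at 8 h, and with SB203580 0.01 and -0.03, then 0.52 and 0.93. The times did not overlap, and the difference was 0.78 (SE 0.16, 95% interval 0.44 to 1.12, adjusted p = 0.00418 by limma), or 1.72-fold higher. A level like that of the lower 8 h arrays was also seen elsewhere, at 0.70 on replicate 1 of SB203580 alone and at 0.70 on replicate 1 of untreated p38α-/- MEFs.

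**Figure D2:**
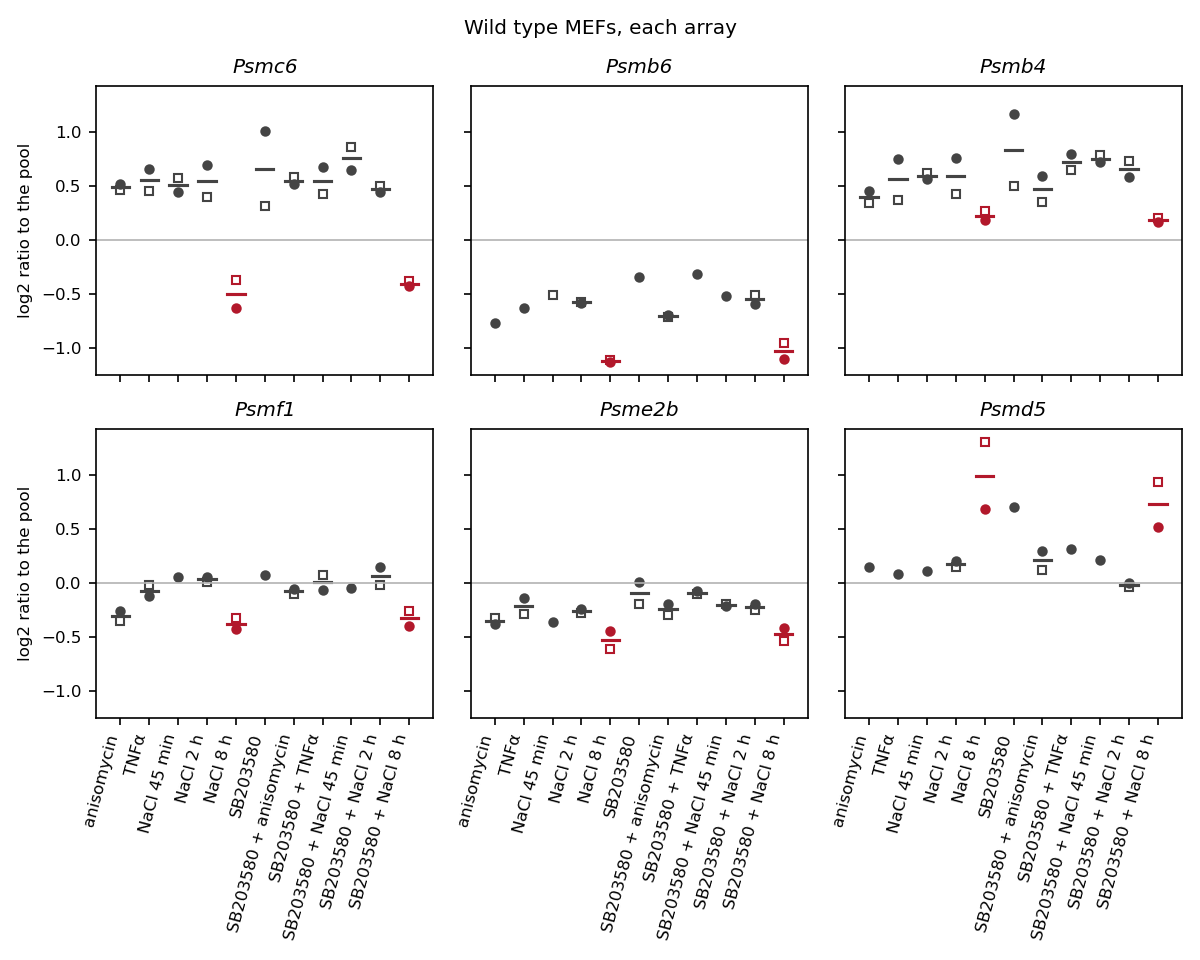
Log2 ratio of sample over pool for Psmc6, Psmb6, Psmb4, Psmf1, Psme2b and Psmd5 on each wild type array (filled circle replicate 1, open square replicate 2, bar the mean; outlier spots left out), with both NaCl 8 h groups in red. The 8 h arrays lie below the 2 h arrays for 5 of the genes and above them for Psmd5.

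With outlier spots kept every member had a value, and 7 of 40 were called lower (9.11% of all genes) and 1 higher (1627 of 21689 genes). Below 0 lay 31 of 40, where the median of all genes was 0.01. Of those called lower 4 belong to the core particle. Among the alpha subunits 1 of 8 was called, Psma1 at -0.46 (adjusted p = 0.0364 by limma), 7 of 8 lay below 0 and their median was -0.27. Among the beta subunits 3 of 7 were called (Psmb6, Psmb4 and Psmb1, the last at -0.36 with an adjusted p of 0.0448), all 7 lay below 0 and the median was -0.35. In the regulatory particle Psmc6 was the one of 6 ATPases called (4 below 0, median -0.14), and the deubiquitinase Psmd14 the one of 10 other subunits (5 below 0, median -0.02). Psmd14 was 0.02, -0.01, -0.19 and -0.17 on the 2 h arrays and -0.82, -0.42, -0.72 and -0.59 on the 8 h arrays, without overlap, a difference of -0.55 (adjusted p = 0.00526 by limma). All 5 activators and inhibitors lay below 0 with a median of -0.24, and Psmf1 was called. Psme2b, at -0.24, was not (adjusted p = 0.061). Psma7, the member with fewest usable spots, differed by -0.49 with an adjusted p of 0.127 (95% interval -0.93 to -0.06), and Psmc3ip by -0.12.

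**Figure D3:**
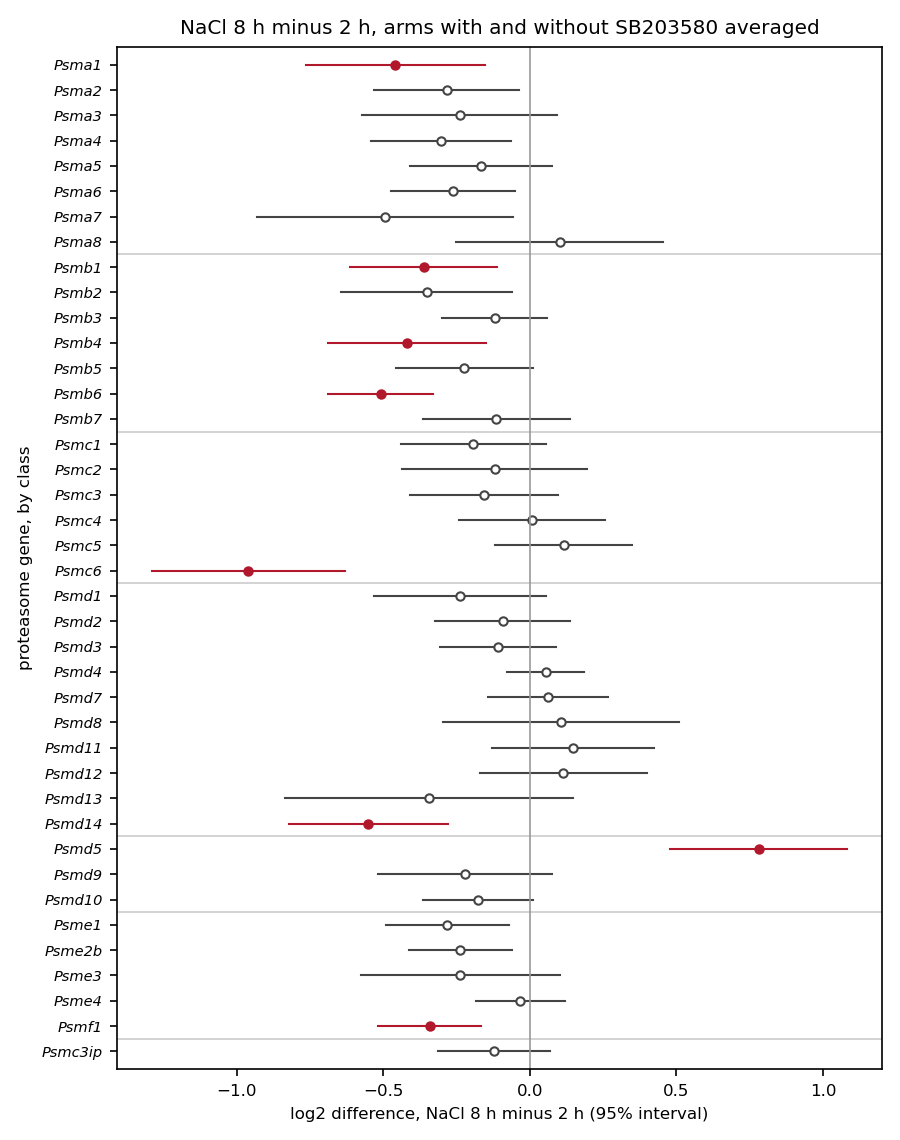
Difference in log2 ratio between 8 h and 2 h of NaCl in wild type MEFs, mean of the arms with and without SB203580 (8 arrays, outlier spots kept), for the 40 members by role, with 95% intervals. Filled red points have an adjusted p under 0.05: Psmd5 lies at 0.78, the other 7 lie between -0.96 and -0.34.

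Within the scanning days the called genes kept their direction, but the members as a group did not move alike on both. On the day of replicate 1 Psmc6 differed by -1.32 without and -0.86 with SB203580, and on the day of replicate 2 by -0.77 and -0.89. Psmb6 differed by -0.54, -0.51, -0.54 and -0.44 in the same order, and Psmd5 by 0.48, 0.52, 1.15 and 0.97. Psmb4 (-0.57, -0.42, -0.16 and -0.53), Psmf1 (-0.48, -0.39, -0.26 and -0.24), Psme2b (-0.21, -0.23, -0.23 and -0.29) and Psmd14 (-0.84, -0.53, -0.41 and -0.42) were below 0 in all 4 pairs. Psma1 (-0.78, -0.58, -0.11 and -0.37) and Psmb1 (-0.69, -0.49, -0.07 and -0.21) were near 0 in the pair without SB203580 on the day of replicate 2. The median of the 40 members was -0.36 and -0.25 on the first day and -0.03 and -0.19 on the other, where the median of all genes ran from 0.00 to 0.03. In the pair with a median of -0.03 members such as Psmd12 (0.48), Psmc2 (0.32), Psmb7 (0.29) and Psmc1 (0.22) lay above 0. The summed ratio of the 13 fibroblast markers moved with time as well, from 1.38 to 1.65 over the 4 arrays at 2 h to 1.10 to 1.37 at 8 h, although 0 of the 10 tested were called by limma (2 at an unadjusted p under 0.05). The leukocyte markers ran from 0.996 to 1.03 at 2 h and from 0.973 to 1.05 at 8 h. Endothelial markers ran from 0.900 to 0.988 and from 0.843 to 0.932, and epithelial markers from 1.03 to 1.09 and from 0.980 to 1.06. No defining marker was at 0, and the part of other cells in the result was not tested.

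The 2 probes of Psmc6 did not give the same size of change. With outlier spots kept, probe 1 averaged 0.61 at 2 h (0.45 to 0.77 over 4 arrays) and -1.08 at 8 h (-1.23 to -0.87), a difference of -1.70. Probe 2, the brighter of them, averaged 0.41 (0.32 to 0.62) and 0.19 (-0.12 to 0.49), a difference of -0.23. Only probe 1 separated the times without overlap. The transcript positions of the probes are not given in the sources used here. Among the other named genes with more than 1 probe the probes ran the same way, but not always to the same size. The differences were -0.56 and -0.54 for Psmd14, -0.39 and -0.08 for Psme2b, and -0.05, -0.68 and -0.30 for the 3 probes of Psmf1. Probe 1 of Psmf1 stayed near 0 (-0.23 to 0.18 at 2 h, -0.10 to 0.08 at 8 h), and only its probe 2 separated the times. Probe 2 of Psme2b overlapped as well (-0.36 to -0.12 at 2 h, -0.48 to -0.20 at 8 h). The calls of Psmf1 and Psme2b therefore rest on part of their probes. Among members that were not called, the probes of Psmd8 (-0.07 and 0.28), Psmd12 (-0.05, 0.16 and 0.23), Psme4 (-0.14 to 0.05) and Psmc4 (0.03 and -0.02) ran opposite ways.

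**Figure D4:**
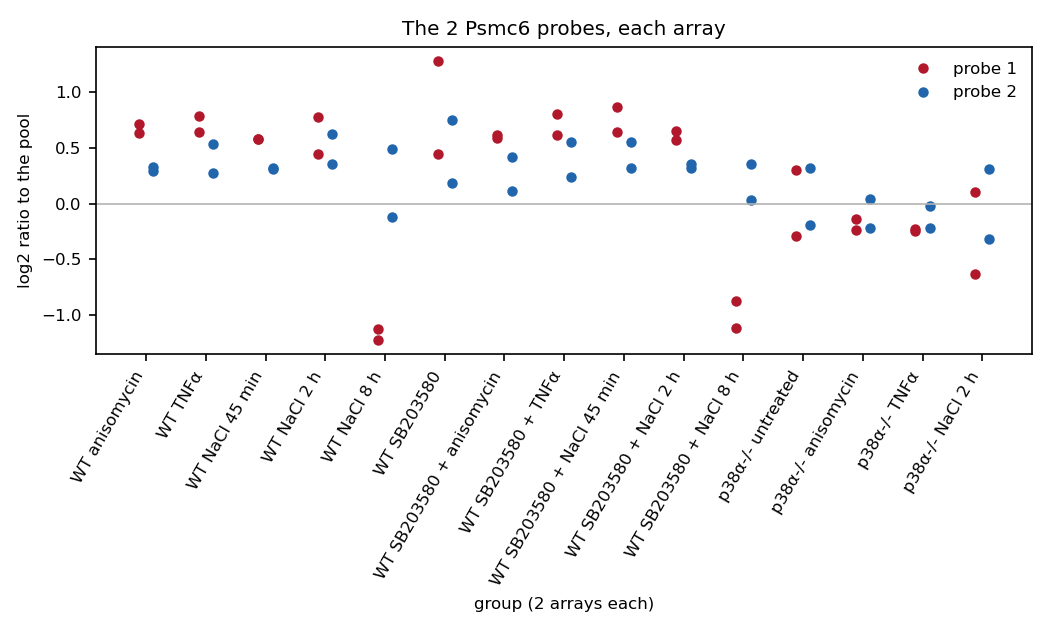
Log2 ratio of sample over pool for probe 1 (red) and probe 2 (blue) of Psmc6 on every array, outlier spots kept. At 8 h of NaCl probe 1 lies between -1.23 and -0.87 and probe 2 between -0.12 and 0.49.

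The role of p38 activity was addressed by setting each stress with SB203580 against the same stress without it. In these 5 comparisons limma called 0 of 12 members with anisomycin, 0 of 16 with TNFα, 0 of 9, 26 and 22 with NaCl for 45 min, 2 h and 8 h, each with 0 at an unadjusted p under 0.05. Of all genes 0.0204%, 0%, 0%, 0% and 0.206% were called, so few genes of any kind passed. In the mean over the 5 stresses 0 of 7 members were called (0 at an unadjusted p under 0.05), against 0.0742% of all genes, and their differences lay between -0.12 for Psmd11 and 0.08 for Psmb4. For Psmc6 this mean difference was 0.06 with a 95% interval of -0.15 to 0.28. At 8 h of NaCl the intervals were wider. SB203580 differed from no inhibitor by 0.10 for Psmc6 (-0.38 to 0.57), by 0.09 for Psmb6 (-0.17 to 0.35) and by -0.26 for Psmd5 (-0.75 to 0.22). The change from 2 h to 8 h also was not found to differ between the arms: 0 of 21 members were called by limma (0 at an unadjusted p under 0.05; 0% of all genes), with differences of 0.17 for Psmc6 (-0.50 to 0.84), 0.06 for Psmb6 (-0.31 to 0.43) and -0.08 for Psmd5 (-0.76 to 0.61). For Psmc6, Psmb6 and Psmd5 these intervals reach close to the size of the change with time itself.

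Set against SB203580 alone, the stresses of 45 min and NaCl for 2 h with SB203580 had 0 calls by limma among 11, 15, 12 and 15 members (anisomycin, TNFα, NaCl 45 min and NaCl 2 h; 0 at an unadjusted p under 0.05 in each). Of all genes, 0.014%, 0.0983%, 0.0435% and 2.87% were called. With NaCl for 8 h 3 of 14 fell, against 5.76% of all genes called lower, with a members' median of -0.27 and 0.02 for all genes. They were Psmc6 at -1.06 (SE 0.23, adjusted p = 0.00612 by limma), Psmb4 at -0.65 (SE 0.18, adjusted p = 0.0352) and Psme2b at -0.38 (SE 0.11, adjusted p = 0.0472). The arrays of SB203580 alone decide this count and the median, which was -0.08 without replicate 1 and -0.40 without replicate 2 of that group. The count was 0 without replicate 1 and 8 without replicate 2 of that group, and 0 and 1 without replicate 1 and replicate 2 of SB203580 with NaCl for 8 h.

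The loss of p38α was compared with wild type under the same stress. For single stresses limma called 0 of 18 members with anisomycin (2 at an unadjusted p under 0.05), 0 of 18 in the TNFα groups (3) and 0 of 28 in the groups with NaCl for 2 h (3), against 1.27%, 0.414% and 0.697% of all genes. With NaCl 1 member was called without replicate 1 of the p38α-/- group. In the mean over the 3 stresses 3 of 13 members were lower in p38α-/- MEFs and 0 higher, against 4.89% and 3.91% of all genes, and the medians were -0.02 for the members and 0.00 for all genes.

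Psmc6 was 0.52 and 0.46 with anisomycin, 0.66 and 0.46 with TNFα and 0.70 and 0.40 with NaCl in wild type MEFs. In p38α-/- MEFs it was -0.05 and -0.23, -0.13 and -0.23, and 0.21 and -0.48. The genotypes did not overlap, and the mean difference was -0.68 (SE 0.13, adjusted p = 0.00248 by limma). Probe 1 differed by -0.90 and probe 2 by -0.47. In untreated p38α-/- MEFs, which have no untreated wild type arrays beside them, it was 0.30 and -0.24.

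Psma5, an alpha subunit, was 0.12, 0.09, 0.30, 0.21, 0.47 and 0.32 in wild type MEFs in the same order and -0.17, -0.29, -0.14, -0.19, 0.14 and -0.19 in p38α-/- MEFs. The genotypes did not overlap within a stress but did across stresses, and the difference was -0.39 (SE 0.10, adjusted p = 0.0218 by limma). Psmb4 was 0.45, 0.35, 0.75, 0.38, 0.76 and 0.43 in wild type and 0.07, 0.04, 0.15, 0.11, 0.38 and 0.04 in p38α-/- MEFs. It again overlapped only across stresses and differed by -0.39 (SE 0.11, adjusted p = 0.0284 by limma). Psmb3, which lacked a value on 1 wild type array once outlier spots were left out, was higher in p38α-/- MEFs with them kept. It was -0.15, -0.03, 0.07, 0.00, 0.17 and 0.15 in wild type and 0.43, 0.51, 0.57, 0.39, 0.67 and 0.39 in p38α-/- MEFs, without overlap, a difference of 0.46 (SE 0.07, adjusted p = 0.000295 by limma). Both of its probes ran this way, at 0.39 and 0.53, and untreated p38α-/- MEFs lay at 0.62 and 0.44.

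**Figure D5:**
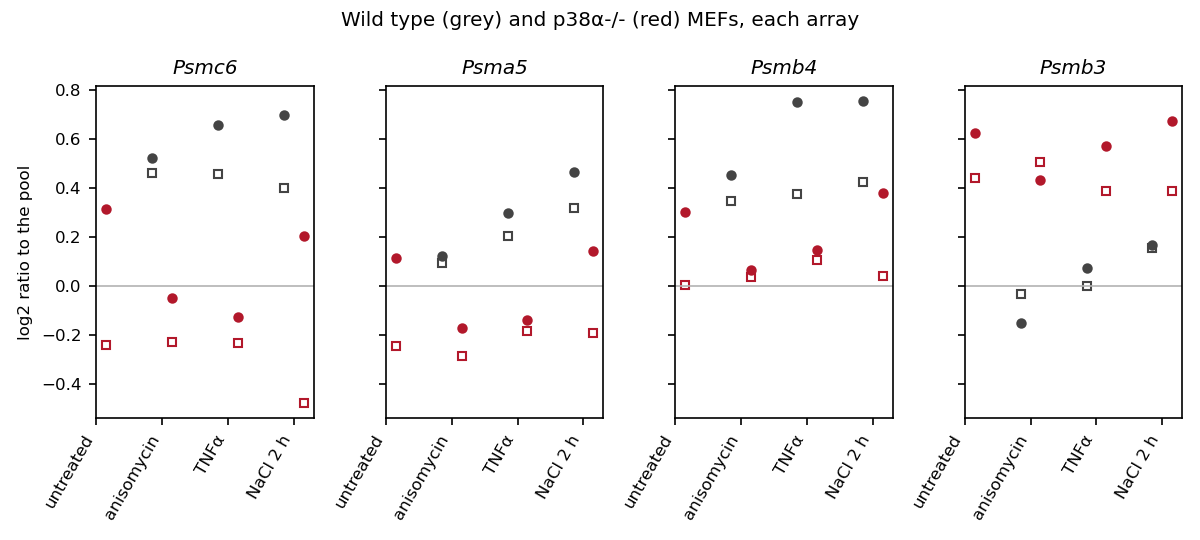
Log2 ratio of sample over pool for Psmc6, Psma5, Psmb4 and Psmb3 in wild type (grey) and p38α-/- (red) MEFs under each treatment (circle replicate 1, square replicate 2, outlier spots kept); untreated cells were measured for p38α-/- only. Psmb3 lies above the wild type values on all p38α-/- arrays and Psmc6 below them.

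Wild type and p38α-/- arrays shared 1 scanning day, with 1 array a group. Within it Psmc6 differed by -0.51, -0.58 and -0.19 (anisomycin, TNFα and NaCl), Psma5 by -0.27, -0.34 and -0.18, Psmb4 by -0.28, -0.23 and -0.04, and Psmb3 by 0.46, 0.57 and 0.52. The median of the 40 members differed by 0.05, 0.08 and 0.08 there, and that of all genes by 0.05, 0.10 and 0.04. With the scanning day as a term, chosen after the values were seen, Psmc6 kept its call at -0.48, whereas Psma5 (-0.30, adjusted p = 0.146 by limma) and Psmb4 (-0.24, adjusted p = 0.254) did not. One call was left without replicate 1 of wild type anisomycin, TNFα or NaCl 2 h, or without replicate 2 of p38α-/- anisomycin. Single markers differed between the lines as well: Kdr, an endothelial receptor, by -1.59, and the fibroblast genes Thy1 and Col1a1 by 0.58 and 0.50. These genes do not stand for their lists, whose sums overlapped between the lines, and the other markers are not given singly. The summed fibroblast ratio ran from 1.08 to 1.65 in wild type and from 1.09 to 1.60 in p38α-/- MEFs, and the endothelial one from 0.797 to 0.988 and from 0.634 to 0.862. The leukocyte sum ran from 0.959 to 1.05 and from 0.996 to 1.17, and the epithelial sum from 0.729 to 1.09 and from 0.896 to 1.06. Their part in the difference was not tested. Within p38α-/- MEFs limma called 0 of 20 members with anisomycin, 0 of 23 with TNFα, and after 2 h of NaCl 0 of 23, each against untreated cells (0 at an unadjusted p under 0.05 in each), where 0.0847%, 0.078% and 1.08% of all genes were called.

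Genes that work beside the proteasome were counted by list, beside the 9.48% of all genes called lower and 7.02% called higher in the NaCl step as background. For the NaCl step from 2 h to 8 h in the mean of both arms, 3 of 10 tested proteasome partners fell, with a median of -0.28. Among them were the ubiquitin ligase Ube3c at -1.08 (adjusted p = 1.17e-05 by limma) and the thioredoxin-like Txnl1 at -0.73. Ube3c was 0.35, -0.09, 0.09 and 0.19 on the 2 h arrays and -1.19, -1.10, -0.81 and -0.67 on the 8 h arrays, without overlap. Of 9 ubiquitin and unfoldase genes 2 fell, among them the polyubiquitin gene Ubb at -0.83. Ubb was 0.87, 0.80, 0.47 and 0.66 on the 2 h arrays and -0.54, 0.07, -0.23 and 0.17 on the 8 h arrays. Of the COP9 signalosome, whose subunits resemble those of the proteasome lid, 2 of 3 fell, Cops2 at -0.46 and Cops7a at -0.43. Of the regulators 0 of 5 were called by limma (0 at an unadjusted p under 0.05), and of the chaperonin CCT 0 of 1 (1). The immunoproteasome gene Psmb8 differed by -0.06.

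Against the pool at 8 h, where 11% of all genes were called higher and 11.2% lower, 3 of 5 regulators were higher. They were the small Maf proteins Maff and Mafk at 1.91 and 1.86 and Nfe2l2 at 0.46. Over all 30 arrays the median signal of these 3 was also higher in the sample than in the pool. It was 5465 against 2607 for Maff, 1816 against 964 for Mafk and 4947 against 3165 for Nfe2l2. A distance from the pool at 8 h is therefore not all a change at 8 h. Of 11 partners 5 were lower, among them Ube3c at -1.14, AI314180 at -0.58 and the deubiquitinase Usp14 at -0.55, and Ubqln2 was higher at 0.84. Of 10 ubiquitin and unfoldase genes 2 were higher, among them Ube2d3 at 0.72, and Ube1x was lower at -0.30. Limma called 0 of 6 COP9 genes (0 at an unadjusted p under 0.05) and 0 of 2 CCT genes (1). Between genotypes, over the 3 stresses (4.89% of all genes lower and 3.91% higher), Nfe2l2 was lower in p38α-/- MEFs by -0.54 (1 of 4 regulators) and Ubqln4 by -0.49 (1 of 9 partners). Psmb8 was higher by 0.85 (adjusted p = 0.00135 by limma), and limma called 0 of 5 ubiquitin and unfoldase genes (3 at an unadjusted p under 0.05) and 0 of 3 COP9 genes (1). For SB203580 over the 5 stresses 0 genes of any of these lists were called by limma (1 of 3 regulators at an unadjusted p under 0.05).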

How the data were processed

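RNA of 30 MEF samples was hybridised to 2-colour Agilent whole genome arrays, with the sample in Cy5 and the pool in Cy3. The authors deposited a log10 ratio of Cy5 over Cy3 for each spot, made by Agilent Feature Extraction (8.1.1.1 per the file headers, 9.1 per the submitters' notes) with spatial detrending and linear and LOWESS dye normalization. The processed and raw intensity of each channel were deposited too, and a value table of log2 ratios by the authors served as an alternative. Genes carry the names in the deposited files, and no coordinates from those files are printed.

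The log10 ratios were turned to log2, spots marked as non-uniform or population outliers were left out, and probes were averaged per gene (33453 named probes of 41174, 62 of them for members). One mean per group was fitted over 30 arrays with limma 3.58.1 (R 4.3.3). Tests were two-sided, with Benjamini-Hochberg adjustment over all genes measured on every array compared and a threshold of 0.05. Intervals are 95%. Tables and figures used Python 3.11.15, pandas 2.3.3, numpy 2.4.6, scipy 1.17.1 and matplotlib 3.10.9. The number of arrays, 2 a group, limits the precision. On simulated data changes of 0.5, 1 and 2 (log2) were called for 20%, 76.5% and 98.5% of genes in NaCl 8 h against the pool (16378 genes) and for 2%, 58.5% and 89% in 8 h minus 2 h (15577 genes).

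Members and lists were chosen with earlier results of these data known. Named with array values were up to 4 called members with the largest mean in a comparison, with further members by count or chosen after their values were seen; of the gene lists, up to 4 called genes. Values of some genes of these lists are not reported here. The mean of both SB203580 arms, the difference between them, the scanning day as a term and single probes were added after seeing the data. Same-numbered samples deviated together: over 55 pairs of wild type groups the correlation of deviations was 0.133 to 0.645 (median 0.458), and over 6 pairs of p38α-/- groups 0.151 to 0.447 (median 0.246), so the replicate numbers pair the samples within a genotype and follow the scanning days. Alternatives were normexp with an offset of 50 and loess, the authors' value table, centring, the brightest probe, a filter on dim spots, outlier spots kept, the replicate block, fewer arrays in the fit, and each of the 30 arrays left out.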

Additional observations from a re-analysis of the deposited data

How the results depend on the processing

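Counts of members called are given as the value reported and then the alternatives that moved it over 1.5 times. The numbers of members tested and of all genes called moved too, so a larger count is not by itself a result about the members. With outlier spots kept all 40 members were tested in each comparison. For SB203580 alone 16 members were tested as reported, and 4042 of 15204 genes were called. With outlier spots kept 8972 of 21689 genes were called there. All pool comparisons together gave 75 calls, 200 with the authors' value table and 190 with outlier spots kept. The NaCl time comparisons gave 4, then 8 with the value table, 2 with the brightest probe and 7 with outlier spots kept. Stress with SB203580 minus SB203580 gave 3, then 16 with the value table and 1 with the brightest probe, and the same numbers hold for NaCl 8 h alone. The genotype comparisons gave 3, then 7 with the value table, 5 with outlier spots kept and 1 with the scanning day as a term. Their mean over 3 stresses gave 3, then 6 with the value table and 1 with the scanning day. Against the pool, NaCl 8 h gave 12 and 6 with normexp, SB203580 with NaCl 8 h gave 11, 17 with the value table and 18 with outlier spots kept, and SB203580 alone gave 5, 22 and 16. NaCl 8 h minus 2 h gave 3 and 5 with the value table, and its mean over both SB203580 arms 6, 11 with the value table and 3 with the brightest probe. Psmc6 in NaCl 8 h against the pool turned to 0.18 on its brightest probe (adjusted p = 0.514 by limma). Leaving out 1 array gave 67 to 80 calls over the pool comparisons, 1 to 5 over time, 0 to 0 for SB203580, 0 to 8 for stress with SB203580, 1 to 4 for genotype and 0 to 0 for stress in p38α-/- MEFs. For single comparisons it gave 4 to 6 (NaCl 8 h), 3 to 6 (SB203580 with NaCl 8 h), 0 to 10 (SB203580), 1 to 1 (8 h minus 2 h), 4 to 8 (both arms), 0 to 8 (NaCl 8 h with SB203580 minus SB203580) and 1 to 4 (genotype mean). With the replicate block the pool comparisons gave 91 calls, both arms 6 and the genotype mean 3, and no count moved over 1.5 times. Not every named gene could be tested under every alternative, the brightest probe above all, and an untested gene is not counted as lost. In the mean of both arms Psmb6, Psmd5 and Psmf1 were called under every alternative that could test them. Psmc6 was called under all but the brightest probe, while Psmb4 and Psme2b were each lost in 7. Between genotypes Psmc6 was called under all alternatives run, while Psma5 was lost in 6 and Psmb4 in 9. With outlier spots kept the median of all genes for SB203580 alone against the pool moved from 0.01 to -0.09, so the 16 calls there are against a shifted middle.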
